A study of Mus musculus with 2 samples.

Results

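The 8 genes described here encode interleukin-6, the 2 chains of its receptor, and the 5 subunits from which interleukins 12, 23, 27 and 35 are put together. They were chosen by symbol (Il6, Il6ra, Il6st, Il12a, Il12b, Il23a, Il27 and Ebi3) from the 55536 annotated genes of the tables, and they have 28 annotated transcripts. The rule held no measured value, but the choice was made with earlier results of these data known. All values come from primary macrophages of C57BL/6J mice, grown from bone marrow, which were given 100 ng/ml lipid A for 12 h, washed and left for 12 h, and then given 100 ng/ml lipid A for 75 min. Lipid A is the membrane anchor of lipopolysaccharide and the ligand of TLR4. Total RNA of the cytosolic fraction was sequenced after removal of ribosomal RNA, from 1 µg of RNA per library. There is 1 group of 2 biological replicates, and sex and age were not collected. No library of untreated cells or of cells treated a single time was analysed here, so the levels are levels after both exposures and do not measure induction.

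Interleukin-6 is a secreted cytokine that binds the chain encoded by Il6ra and then the signalling chain gp130, encoded by Il6st, which acts through JAK kinases and STAT3. Interleukins 12 and 23 share the p40 subunit encoded by Il12b, joined to p35 (Il12a) or to p19 (Il23a). In interleukin-27 the Ebi3 subunit is joined to p28 (Il27), and Ebi3 with p35 has been described as interleukin-35. Macrophages and dendritic cells make these cytokines after contact with microbial products, and messages of this kind often carry AU-rich elements, short motifs bound by proteins that speed the decay of the message.

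The replicates held 64187219 and 49429864 expected counts on annotated genes, so replicate 1 has the smaller counting error. All 10 macrophage markers checked were detected, at a summed TPM of 5231 and 5762 in replicates 1 and 2. TPM is a share of a library's transcripts corrected for length, and a gene is called detected here where neither library has it under 1 TPM. Protein-coding genes held only 29.9% and 26.2% of TPM in replicates 1 and 2. The TPM values given here are therefore lower than they would be on a scale of protein-coding genes alone. No dendritic cell marker was detected among 7, with a summed TPM of 0.27 and 0.45. Of the T and natural killer cell markers 1 of 8 was detected, Cd4 at 16.7 and 14.1 TPM. The CD3 chain genes Cd3d, Cd3e and Cd3g stayed at or under 0.04 TPM. The B cell list had 1 of 5 (Cd79b), the neutrophil list 2 of 7 (S100a8 and S100a9) and the list for stroma and endothelium 2 of 7 (Vwf and Kdr). In bulk RNA, fewer cells of a type and less RNA per cell cannot be told apart. The labels give the replicates separate biosamples and the same donor code, so a p-value between them speaks of these samples alone, and their spread may be technical.

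Of the 8 messages 6 were detected, Il6, Il6ra, Il6st, Il12b, Il27 and Ebi3, against 8812 of 22028 protein-coding genes (40.0%). Ebi3 was the most abundant, Il23a lay at the detection level in replicate 1 and far under it in replicate 2, and Il12a was close to 0 in both. The median over the 8 genes was 11.1 TPM in replicate 1 and 6.68 TPM in replicate 2, beside 8.03 and 7.32 TPM over detected protein-coding genes. The sets are unlike, since the 8 genes include Il12a and Il23a, which were not detected.

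Ebi3 stood at 84.25 TPM in replicate 1 and 84.00 TPM in replicate 2 (84.1 ± 0.177, SD, n = 2). This placed it at rank 532 among protein-coding genes, above 97.6% of them. The gene lies at chr17:55952640-55957022 on the plus strand of mm10, and its exons share 270 bases with those of the antisense gene Gm16712, which stood at 0.65 and 0.92 TPM. Whether the counting used strand is not given here, so reads of the shared bases cannot be assigned to one strand.

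Il6 stood at 22.26 TPM in replicate 1 and 6.73 TPM in replicate 2 (14.5 ± 11.0, SD, n = 2). It was the second most abundant of the 8 in replicate 1, and the fourth in replicate 2, where Il6st and Il27 were above it. The gene lies at chr5:30013114-30019981 on the plus strand, and its counts were 2285 and 580.

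The promoters of Ebi3 and Il6 are shown because, of the 7 promoter entries found in RefSeq (GRCm38.p6) for Il6, Il6ra, Il6st, Il12a (2 entries), Il12b and Ebi3, they were the pair with a match to the kappa B motif, which NF-kB dimers bind. Each run gives the 250 bases before the annotated start, on the plus strand, with matched motifs in capitals. The Ebi3 run covers chr17:55952373-55952622 and the Il6 run chr5:30012864-30013113.
Ebi3: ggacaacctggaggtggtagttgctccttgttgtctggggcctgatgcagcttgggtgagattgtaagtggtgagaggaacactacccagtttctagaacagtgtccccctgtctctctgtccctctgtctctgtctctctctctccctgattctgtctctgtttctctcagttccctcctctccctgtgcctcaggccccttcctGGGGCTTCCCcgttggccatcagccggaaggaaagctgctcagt
Il6: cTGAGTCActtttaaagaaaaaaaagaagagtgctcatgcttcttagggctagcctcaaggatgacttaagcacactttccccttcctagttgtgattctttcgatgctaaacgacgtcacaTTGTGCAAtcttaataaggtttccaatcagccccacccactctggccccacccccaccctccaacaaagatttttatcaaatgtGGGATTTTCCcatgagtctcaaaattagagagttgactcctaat
In both promoters the kappa B match begins 44 bases before the start, and reads GGGGCTTCCC in Ebi3 and GGGATTTTCC in Il6. The Il6 promoter also held a match to the AP-1 motif TGANTCA 249 bases before the start and one to the C/EBP motif TTGCNNAA 128 bases before it, on the minus strand. Over 32851 promoters of 300 bases (250 before the start and 50 after), on both strands, 4.51% held a kappa B match, 7.81% the AP-1 motif and 10.8% the C/EBP motif. The cyclic AMP response element TGACGTCA (1.79% of promoters) and the interferon regulatory factor motif GAAANNGAA (8.56%) matched none of the 7 entries. Il23a and Il27 had no entry, so their promoters were not searched. A match is a description of letters and was not tested as a binding site.

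Among the other subunits, Il27 stood at 11.89 and 8.86 TPM in replicates 1 and 2 (10.4 ± 2.14, SD, n = 2), and Il12b at 13.12 and 5.84 TPM (9.48 ± 5.15). Il12b exceeded Il27 in replicate 1 and was under it in replicate 2. Il12b lies at chr11:44400063-44414033 on the plus strand and Il27 at chr7:126589010-126594941 on the minus strand. The exons of Il27 share 103 bases with those of Apobr, a protein-coding gene on the opposite strand that stood at 18.8 and 16.9 TPM, so part of the Il27 reads may belong to Apobr.

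Il23a, the subunit that is particular to interleukin-23, stood at 1.05 TPM in replicate 1 and 0.08 TPM in replicate 2. These values rest on 136 and 9 counts, whose exact Poisson 95% intervals are 114 to 161 and 4.12 to 17.1 and cover counting error only. Its mean of 0.565 ± 0.686 (SD, n = 2) therefore describes neither library. Il12a stood at 0.16 and 0.06 TPM, from 16 and 6 counts (0.110 ± 0.071). Il23a lies at chr10:128296139-128298752 on the minus strand, and Il12a at chr3:68690644-68698547 on the plus strand.

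On the TPM scale of the alignment table, Il6st was level across the libraries and Il6ra was higher in replicate 2. Il6st stood at 10.34 and 10.37 TPM (10.4 ± 0.0212, SD, n = 2), and Il6ra at 5.41 and 6.62 TPM (6.02 ± 0.856). The transcript table made directly from the reads gave Il6st 6.97 and 5.25 TPM and Il6ra 3.798 and 3.503 TPM, on a scale whose median over detected protein-coding genes was itself 0.55 (log2) higher in replicate 1, against 0.14 on the alignment scale. Il6st lies at chr13:112464070-112510086 on the plus strand, and Il6ra at chr3:89864059-89913196 on the minus strand. The exons of Il6ra share 242 bases with the antisense gene Gm42809, which stood at 0.01 and 0.06 TPM.

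**Figure D1:**
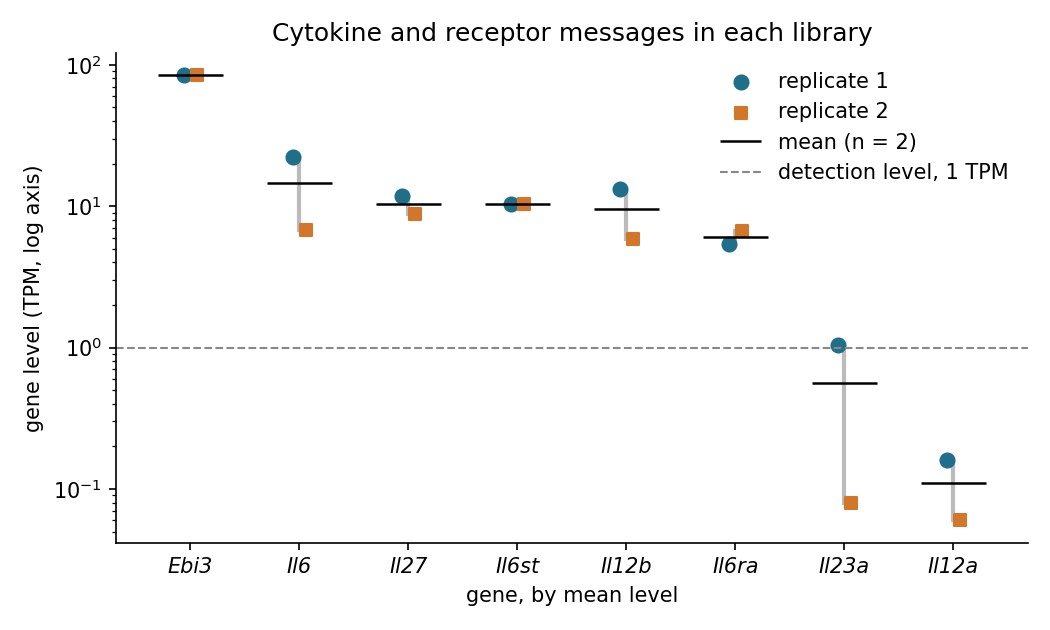
Level of each gene in TPM on a log axis, with replicate 1 as circles, replicate 2 as squares, the mean (n = 2) as a black bar and the detection level of 1 TPM as a dashed line. The symbols of Ebi3 and Il6st coincide, while those of Il6, Il12b and Il23a lie apart, with replicate 1 above replicate 2.

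By mean level the order was Ebi3, Il6, Il27, Il6st, Il12b, Il6ra, Il23a and Il12a. Neighbours in this order had replicate ranges that did not overlap in 2 places, between Ebi3 and Il6 (5.80-fold) and between Il6ra and Il23a (10.6-fold). From Il6 to Il6ra no neighbours differed beyond their spread, nor did Il23a and Il12a.

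The chains of each pair were far from equal in message. Within a library the ratio of Ebi3 to Il27 TPM, the subunits of interleukin-27, was 7.09 in replicate 1 and 9.48 in replicate 2. The ratio of Il12b to Il12a, the subunits of interleukin-12, was 82.0 and 97.3. In all 3 heterodimers with p40 or p28 the shared chain, Il12b or Ebi3, was the more abundant message in both libraries.

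On the log2(TPM + 0.1) scale, where a difference is smaller than the plain ratio for low genes, Il12b exceeded Il12a by 5.67 and 5.21 in replicates 1 and 2 (5.44 ± 0.32, SD, n = 2). Ebi3 exceeded Il27 by 2.81 and 3.23 (3.02 ± 0.29). Both differences are many times the spread of the replicates, though the first rests on 16 and 6 Il12a counts. An exact permutation test over 2 libraries cannot reach 0.05, so no test of a ratio is given.

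The ratio of Il12b to Il23a, the subunits of interleukin-23, was the least stable, at 12.5 in replicate 1 and 73.0 in replicate 2. On the log2 scale it was 3.52 and 5.04 (4.28 ± 1.08). Ebi3 exceeded Il12a, its partner in interleukin-35, by 8.34 and 9.04 (8.69 ± 0.49). For the interleukin-6 receptor, Il6st exceeded Il6ra by 0.92 and 0.64 (0.78 ± 0.20), which is 1.91-fold and 1.57-fold. These are ratios of messages in the cytosol, and protein was not measured.

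**Figure D2:**
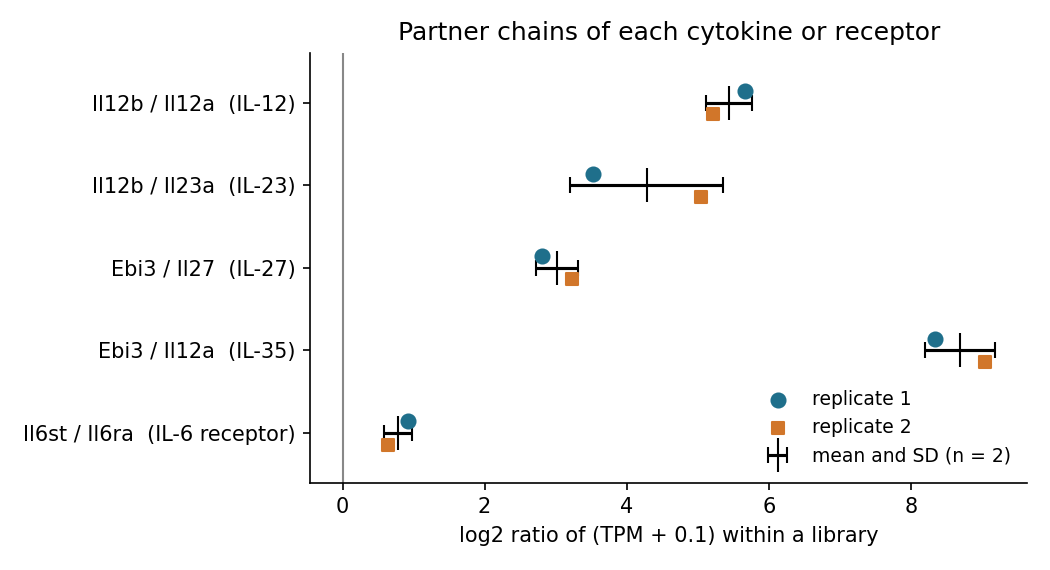
Log2 ratio of (TPM + 0.1) between the partner chains of each cytokine or receptor within replicate 1 (circles) and replicate 2 (squares), with mean and SD (n = 2). All values lie to the right of 0, from 0.64 for Il6st over Il6ra to 9.04 for Ebi3 over Il12a, and the interleukin-23 pair has the widest gap between libraries.

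Il6, Il12b and Il23a were higher in replicate 1 than in replicate 2, while Il27, Ebi3 and both receptor chains differed by 1.30-fold or less by scaled counts. The comparison used a two-sided exact binomial test on rounded counts with library sizes scaled by TMM and Benjamini-Hochberg adjustment, and called a gene apart at an adjusted p under 0.05 where the libraries also differed by 2-fold or more. Only counting error enters this test, which compares these 2 libraries, not conditions. Of the 8 genes 3 were called apart, against 5.53% of the 13298 genes tested, and all 3 were higher in replicate 1, against 2.52% of genes tested. The median log2 ratio of replicate 1 over replicate 2 was 0.69 over the 8 genes and 0.04 over all genes tested.

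Il23a was 11.6-fold higher in replicate 1 (95% counting interval 5.95 to 26.0, adjusted p = 9.8e-23, exact binomial test). Of all genes tested 0.226% lay further apart. From the counts of the read-based table the difference in Il23a was smaller, 4.10-fold (2.84 to 6.07, adjusted p = 2.3e-17, exact binomial test). Il6 was 3.03-fold higher (2.77 to 3.33, adjusted p = 8.1e-150, exact binomial test), and 2.16% of genes tested (0.170% of detected protein-coding genes) lay further apart. Il12b was 2.11-fold higher (1.96 to 2.29, adjusted p = 2.9e-87, exact binomial test), and 5.62% of genes tested (0.840% of detected protein-coding genes) lay further apart.

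Fewer calls were left when a coefficient of variation of 0.2 between libraries was assumed, a value not estimated from these data. In edgeR's exact test with an assumed coefficient of variation of 0.2, 2 of the 8 genes were called, against 1.04% of genes tested, and both were higher in replicate 1, against 0.361%. Il23a had an adjusted p of 3.1e-06 in that exact test and Il6 of 0.0209, whereas Il12b had 0.351 and was not called.

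The other members lay within 2-fold, or had too few counts. Il27 was 1.27-fold higher in replicate 1 (1.15 to 1.40, adjusted p = 4.5e-06, exact binomial test), and Il6ra 1.30-fold higher in replicate 2 (adjusted p = 2.4e-23, exact binomial test). The log2 ratios of Il6st and Ebi3 were -0.11 and -0.08 by scaled counts. By TPM Ebi3 was marginally higher in replicate 1, and by read-based TPM so were Il6st and Il6ra, on scales shifted by the medians given above. An adjusted p under 0.05, with no fold minimum, was reached by 7 of the 8 genes and by 56.4% of genes tested. Il12a had a ratio of 2.05 with an interval from 0.763 to 6.41 (adjusted p = 0.202, exact binomial test), so a difference was not detectable at this depth.

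No marker of another cell type was called higher in replicate 1. The neutrophil markers summed to 5.69 TPM in replicate 1 and 12.5 TPM in replicate 2, with S100a8, S100a9 and Ngp called higher in replicate 2 and Ly6g at 0 in both. The macrophage marker Adgre1 was 2.10-fold higher in replicate 2, and the dendritic cell marker Flt3, at 0.01 and 0.08 TPM, was also called higher there, as were Pecam1 and Pdgfrb of the list for stroma and endothelium. Of these markers Flt3 alone was also called in edgeR's exact test with a coefficient of variation of 0.2. The part of these differences in the results for Il6, Il12b and Il23a was not tested.

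**Figure D3:**
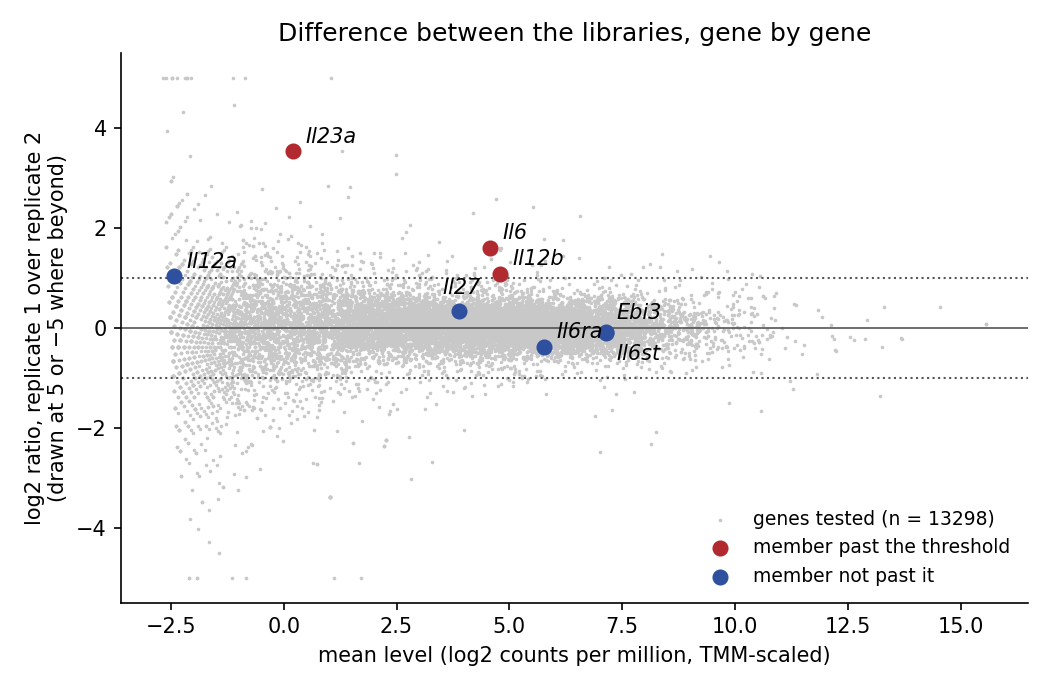
Log2 ratio of replicate 1 over replicate 2 against mean level in log2 CPM (counts scaled to library size) for the 13298 genes tested (grey), with the 8 genes coloured by whether they passed the threshold and dotted lines at a 2-fold difference. Il6, Il12b and Il23a lie above the upper line, Il12a lies just above it at the low end without passing the test, and Il27, Ebi3, Il6st and Il6ra lie near 0.

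The cytokine subunits other than Ebi3 shared a feature of their messages. Per kb of 3′ UTR in the leading transcript, Il6, Il12a, Il12b, Il23a and Il27 were dense in the pentamer ATTTA. This pentamer is the core of AU-rich elements. By the same measure the receptor chains were not dense. The densest 30-base window of each dense gene is shown on the strand of the message. Pentamers are in capitals and T stands for U, as read from the mm10 genome. The windows lie at chr5:30019677-30019706 (Il6), chr3:68698434-68698463 (Il12a), chr11:44413473-44413502 (Il12b), chr10:128296187-128296216 (Il23a) and chr7:126589090-126589119 (Il27), with the single pentamer of Ebi3 at chr17:55956959-55956988 for comparison.
Il6: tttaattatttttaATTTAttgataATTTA
Il12a: gcctATTTAtATTTATTTAttttctATTTA
Il12b: ATTTAagtaATTTAtgtATTTAttaATTTA
Il23a: agtatagatgatggttATTTAttctATTTA
Il27: ccagatATTTAtttcttggatATTTATTTA
Ebi3: ggtgcggggctttgtgaactttgtgATTTA
The Il12a and Il12b windows hold 4 pentamers each, that of Il27 holds 3, and those of Il6 and Il23a hold 2.

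Over the whole 3′ UTR of the leading transcript, Il6, Il12a, Il12b and Il23a had 6 pentamers each and Il27 had 5. Per kb this came to 17.5 in Il27, 14.1 in Il6, 12.2 in Il12a, 9.13 in Il23a and 7.53 in Il12b, more than in 99.7%, 99.5%, 99.3%, 98.4% and 97.3% of detected protein-coding genes. Ebi3 had 1 pentamer (4.08 per kb, more than in 88.6% of these genes). Il6st had 9 in a long 3′ UTR of 5641 bases (1.60 per kb, 56.8%) and Il6ra had 1 (0.544 per kb, 36.8%). By number alone Il6st lay above 93.5% of these genes, against 85.7% for Il6, Il12a, Il12b and Il23a and 81.2% for Il27. Only 1 transcript per gene was searched, so the 3′ UTRs of Il6ra-202 (7102 bases) and Il6st-201 (2415 bases) are not covered. Over 8762 detected protein-coding genes 65.6% had at least 1 pentamer, with a median of 1.27 per kb. The longer motif TTATTTAT split the 5 dense genes. Il23a held 3 copies, Il27 held 2 and Il12a held 1, while Il6 and Il12b held 0, as did Ebi3 and the receptor chains, beside 12.4% of these genes with at least 1.

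The 5 dense genes all had a ratio above 1 between replicates 1 and 2, with an interval that includes 1 for Il12a. The other 3, Ebi3, Il6st and Il6ra, had a ratio under 1 by scaled counts (above 1 for Ebi3 by TPM and for all 3 by read-based TPM). A ratio above 1 by scaled counts was common among other detected protein-coding genes. It was found in 67.2% of those with 10 or more pentamers per kb, 64.9% with 5 to under 10 and 58.7% with none. Il27 was the densest and 1.27-fold apart, and a link between density and ratio was not tested. Other detected protein-coding genes were placed in bins of density, with limits chosen after the values were seen. The median log2 ratio was 0.17 over 119 genes with 10 or more pentamers per kb (quartiles -0.05 and 0.38) and 0.07 over 3015 genes with none (quartiles -0.15 and 0.27). Of these, 4 (3.36%) and 14 (0.464%) were called higher in replicate 1. In the bins between, the median was 0.005 over 2641 genes with over 0 to under 2 per kb. It was 0.055 over 2482 genes with 2 to under 5, and 0.089 over 499 genes with 5 to under 10. Il12b and Il23a had densities within this last range. The median thus did not rise steadily with density. In the bins between, the share called higher was 0.644%, 0.846% and 1.202%, from 17, 21 and 6 genes. This share was larger in each denser bin, but the largest rests on 4 of 119 genes, and a trend was not tested. The outer bins also differed in the median length of the 3′ UTR, 156 and 339 bases, and its part in the difference was not tested.

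**Figure D4:**
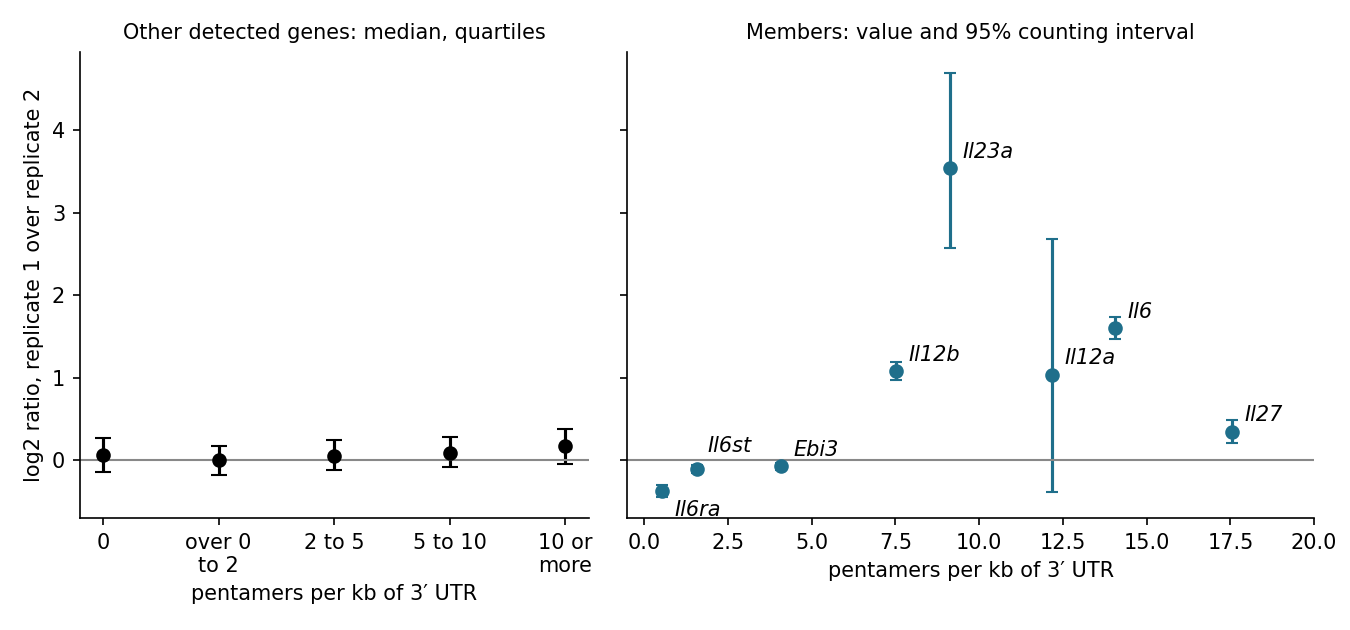
Left, median and quartiles of the log2 ratio of replicate 1 over replicate 2 for other detected protein-coding genes, by density of ATTTA in the 3′ UTR. Right, the same ratio for each of the 8 genes with its 95% counting interval. Il6ra, Il6st and Ebi3, with 4.08 or fewer pentamers per kb, lie under 0 by scaled counts but not by every TPM scale. The 5 cytokine subunits with 7.53 or more pentamers per kb lie above 0.

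Each gene had 1 leading transcript, and for Il6, Il12b, Il27 and Ebi3 it held nearly all of the message. Il6-201, which encodes 211 residues, had 92.5% and 90.8% of Il6 TPM in replicates 1 and 2, and Il6-204, with 194 residues, had 5.56% and 3.19% (12.3% and 5.59% in the table made directly from the reads). Il12b-201 was at 100% in both libraries, and Il27 and Ebi3 have 1 annotated transcript each.

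The receptor chains were split between forms that differ in the 3′ UTR. Il6ra-201 had 63.9% and 64.4% of Il6ra TPM, and Il6ra-202, whose 3′ UTR of 7102 bases is longer than the 1837 bases of Il6ra-201, had 36.1% and 35.6%. In the table made from the reads Il6ra-202 had a smaller share, 21.7% and 21.9%. For Il6st the leading form depended on the table. The table made from an alignment gave Il6st-203 74.5% and 76.1% and Il6st-201 24.81% and 22.99%, whereas the one made from the reads gave Il6st-203 41.7% and 42.8% and Il6st-201 54.6% and 55.3%. Both forms encode 917 residues, and their 3′ UTRs are 5641 and 2415 bases long.

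Low counts left the forms of Il12a and Il23a unsettled. Il12a-202 had 78.5% and 100% of Il12a TPM, and the retained-intron form Il12a-203 had 21.5% in replicate 1 from 1.58 estimated counts. For Il23a, the coding form Il23a-201 had 95.4% and 79.5%, and the retained-intron form Il23a-202 had 4.57% and 20.5%. The table made from the reads put Il23a-202 at 24.2% and 80.5%, so that in replicate 2 the form with the intron led there, at 0.0842 TPM.

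**Figure D5:**
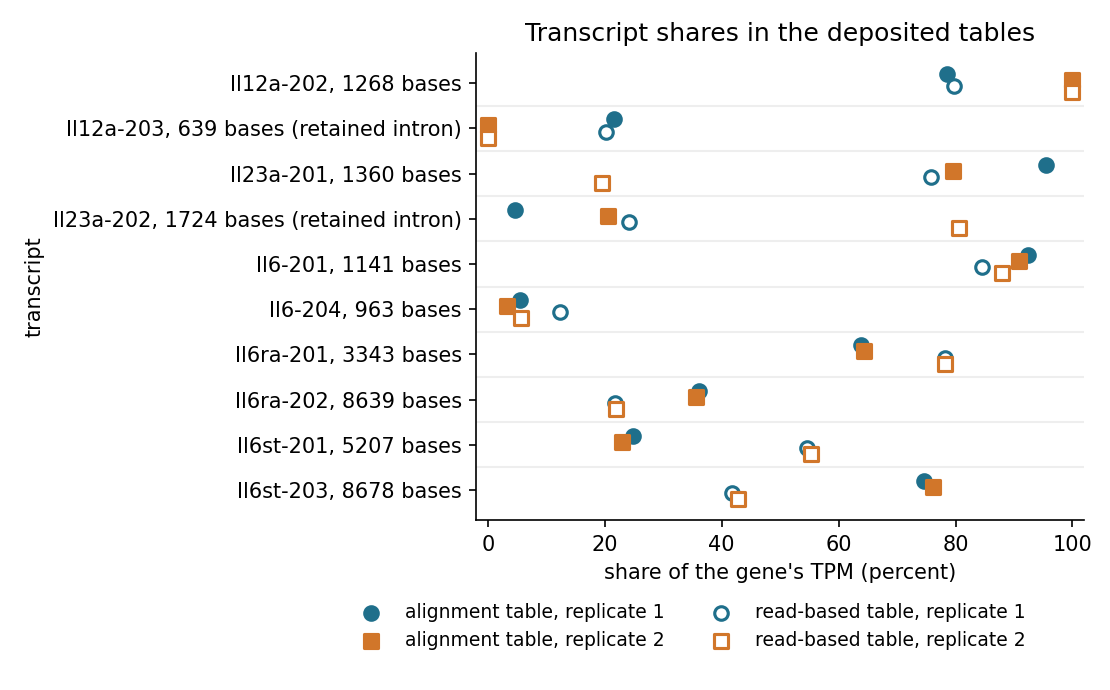
Share of its gene's TPM in percent for each transcript that reached 10% in either replicate of either table, for the 5 genes with more than 1 such form, with filled symbols for the table made from an alignment and open symbols for the table made from the reads. Circles are replicate 1 and squares replicate 2; the order of Il6st-201 and Il6st-203 differs between the tables in both replicates.

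Among the other ligands of gp130, Osm (oncostatin M) alone of 6 was detected, at 7.23 and 5.21 TPM. Clcf1 stood at 0.74 and 0.23 TPM (137 and 38 counts) and Lif at 0.15 and 0.03 TPM (62 and 12 counts). Both were called higher in replicate 1, by 2.78-fold and 3.98-fold (adjusted p = 9.7e-09 and 2.8e-06, exact binomial test). These were 2 of the 3 ligands tested, against 2.52% of all genes tested. Cntf stood at 0.08 TPM in both, and Il11 and Ctf1 were listed at 0. Il6 lay above each of these 6 in both libraries. In edgeR's exact test with a coefficient of variation of 0.2 neither Clcf1 nor Lif was called.

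Of the 8 partner receptors 4 were detected, and of the 5 with enough counts for the test 0 differed by 2-fold between replicates and 4 had an adjusted p under 0.05 in the exact binomial test, which 56.4% of all genes tested had. Il12rb1, which binds p40 and is shared by the receptors of interleukins 12 and 23, stood at 7.51 and 12.98 TPM and was 1.83-fold higher in replicate 2. Il11ra1 stood at 10.9 and 14.6 TPM, Il12rb2 at 4.19 and 2.99 TPM, and Il23r at 1.49 and 1.77 TPM. The specific chain of the interleukin-27 receptor, Il27ra, stood at 0.01 and 0.03 TPM, Osmr at 0 and 0.01 TPM, and Cntfr was listed at 0 in both.

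Of 11 genes of JAK-STAT signalling and its inhibitors 10 were detected, and none differed by 2-fold, while 7 had an adjusted p under 0.05 in the exact binomial test (56.4% of all genes tested). Socs3, a suppressor that binds gp130, stood at 240.7 and 138.9 TPM. Jak1 stood at 30.6 and 31.0 TPM, and Stat3, the main carrier of the interleukin-6 signal, at 22.0 and 28.4 TPM. The lowest were Pias3 (3.23 and 2.55 TPM), Socs1 (1.54 and 1.34 TPM) and Stat4, which carries the interleukin-12 signal in lymphocytes, at 0.62 and 0.48 TPM.

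All 15 transcription factors listed for the promoters of these cytokines were detected, and none differed by 2-fold, while 11 had an adjusted p under 0.05 in the exact binomial test (56.4% of all genes tested). Of the 15, 12 were higher in replicate 1 by scaled counts, and Irf8 joined them by TPM. The median log2 ratio by scaled counts was 0.18 beside 0.04 over all genes tested. Irf1 stood at 275.5 and 224.0 TPM, Nfkbiz at 265.3 and 164.9 TPM, and Irf5 at 60.6 and 55.4 TPM. Nfkbiz encodes a nuclear cofactor of NF-kB that is needed for Il6 transcription. Atf3, a repressor of Il6 and Il12b, stood at 187.1 and 91.1 TPM and was 1.93-fold higher in replicate 1, just under the 2-fold limit. The lowest were Irf3 (10.02 and 8.25 TPM), Nfil3 (10.92 and 6.08 TPM) and Cebpd (2.37 and 2.16 TPM).

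All 11 genes of message decay and stability were detected, and none differed by 2-fold, while 9 had an adjusted p under 0.05 in the exact binomial test (56.4% of all genes tested). Zfp36, which encodes tristetraprolin, a protein that binds AU-rich elements and promotes decay, stood at 436.7 and 231.7 TPM and was 1.76-fold higher in replicate 1, the same side as Il6. Zfp36l1 stood at 98.6 and 72.7 TPM and Zc3h12c at 34.98 and 23.77 TPM. Arid5a, whose protein stabilises the Il6 message, stood at 11.7 and 12.9 TPM, and Rc3h1 and Rc3h2, the roquins, at 6.18 and 4.99 TPM and at 6.29 and 5.19 TPM.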

How the data were processed

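Total RNA of the cytosolic fraction was measured in 2 libraries of 1 group. The deposited tables use mm10 and GENCODE M21. No aligner, quantifier or strandedness is given in the sources used here. Expected counts are, per the file headers, unscaled estimates by the authors for each gene or transcript. In the deposited TPM values length is corrected for and the total over all features of a table is fixed. The deposited FPKM values were not used in a result. A transcript's share of its gene's TPM is a deposited percent. A further transcript table holds estimated counts and TPM that the authors made from the reads.

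The members and all lists were chosen with earlier results of these data known. Levels, ratios and detection used deposited gene TPM, with a pseudocount of 0.1 for log ratios. Before the replicates were compared, expected counts were made whole by rounding, 26248 transfer RNAs and 97 spike-in features were left out, and library sizes were scaled by TMM (edgeR 4.0.16, R 4.3.3). The exact binomial test (SciPy 1.17.1) covered genes with a mean count of at least 10. One group of 2 leaves no residual degrees of freedom, so edgeR's quasi-likelihood test could not be run. The binomial test, but not edgeR's exact test, was tried on simulated counts. These held counting error only, so the trial does not cover variation between replicates. Promoters came from RefSeq, and 3′ UTRs from the reference annotation. All 8 genes are named, as are transcripts with a share of at least 10% and, from each related list, up to the 4 highest, the 3 lowest and those called apart. One gene that this rule allows is not reported here. Il23a and Il27 are named without a promoter.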

Additional observations from a re-analysis of the deposited data

How the results depend on the processing

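The number of detected genes was 6 under every alternative tried except in replicate 1 alone, where Il23a made it 7. With TPM rescaled to protein-coding genes, every level was higher. Ebi3 then stood at 281.5 and 320.3 in replicates 1 and 2, Il6 at 74.4 and 25.7, and Il6st at 34.6 and 39.5. On that scale Ebi3 and Il6st were higher in replicate 2. The 3 calls between replicates, Il6, Il12b and Il23a, were also made with DESeq2 size factors, unscaled totals, no filter, the read-based table, TMM over protein-coding genes (a setting added after the data were seen) and an assumed coefficient of variation of 0.1. Without the fold minimum 7 of the 8 genes were called, as were 56.4% of all genes tested. No difference in scaled counts changed its direction under these settings, but that of Il23a was 2.03 on the log2 scale in the read-based table against 3.54. The deposited TPM scales, which are shifted between replicates, put Ebi3 and, in the read-based table, Il6st and Il6ra higher in replicate 1.

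Every partner ratio kept its sign. Il12b over Il12a was 4.92 in the read-based table, 3.15 and 6.33 with pseudocounts of 1 and 0.01, and 7.14 from counts without length correction. Ebi3 over Il12a was 7.98, 6.26, 9.59 and 9.58 under the same settings. Il12b over Il23a was 2.72 with a pseudocount of 1, and Il6st over Il6ra was 1.39 from counts without length correction. Genes with low TPM move with the pseudocount by its construction. Leading transcripts matched in 6 of 8 genes in the read-based table, with Il6st and Il23a the exceptions. Scaling by spike-ins was not run, since the ERCC spike-ins had 0 counts. No paired analysis was possible because there is 1 group. With 2 replicates and 16 and 6 counts for Il12a, depth limits its ratios and forms.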

Other observations

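Shedding of the interleukin-6 receptor from the cell surface depends on ADAM proteases, and these were present in message. Adam17 stood at 27.03 and 31.51 TPM in replicates 1 and 2, Rhbdf2, which brings ADAM17 to the surface, at 16.6 and 17.7 TPM, and Adam10 at 15.5 and 17.2 TPM. Rhbdf1 stood at 0.09 and 0.07 TPM and Timp3, an inhibitor of ADAM17, at 0.01 and 0.03 TPM. Of the 5 genes 3 were detected and none differed by 2-fold among the 4 tested, of which 3 had an adjusted p under 0.05 in the exact binomial test (56.4% of all genes tested).

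The chaperones and disulfide isomerases of the endoplasmic reticulum, in which the heterodimers are folded, were abundant and leaned to replicate 2. All 8 matched genes of the list were detected, and 0 of 8 were higher in replicate 1 by scaled counts, though Hspa5 was by TPM. None differed by 2-fold, though all 8 had an adjusted p under 0.05 in the exact binomial test (56.4% of all genes tested), with a median log2 ratio of -0.40 beside 0.04 over all genes tested. Calr stood at 152.7 and 202.3 TPM, Hspa5 at 167.8 and 158.9 TPM, Canx at 85.3 and 105.9 TPM and Hsp90b1 at 81.2 and 107.1 TPM. Il6, Il12b and Il23a lay on the other side, higher in replicate 1.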
